A study of Mus musculus with 3 samples.

Results

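The 8 genes described here encode enzymes, a helper protein and a receptor of the eicosanoids, the lipid mediators made from arachidonic acid. They were chosen by name: Alox5, Alox5ap, Lta4h and Ltc4s of leukotriene synthesis, the leukotriene B4 receptor Ltb4r1, and Ptgs1, Ptgs2 and Ptges of prostaglandin synthesis. All 8 were among the 19091 genes counted. Liver cells of adult C57BL/6 mice were profiled by Drop-seq, in which single cells are captured in droplets with barcoded beads and each captured transcript is counted once by its unique molecular identifier (UMI). The control library came from livers that had, by the labels, sham surgery with tissue taken 1 day later. The other 2 came from livers 1 day and 7 days after irreversible electroporation (IRE), which kills cells locally with electric pulses, by the labels 8 pulses of 50 ms at 75 V with 1 s between them, whereas the study's methods give a lower voltage. By the study's methods each library was pooled from 3 livers, sampled by a 4 mm punch that was digested with enzymes. With 1 library per condition no test across animals was possible, and the 95% intervals given in parentheses cover counting error only. An overlap of such intervals is a description and not a test of equality. The study's methods call the control tissue non-injured and name no sham surgery.

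In leukotriene synthesis, the 5-lipoxygenase encoded by Alox5 needs its membrane helper FLAP, the product of Alox5ap, to turn arachidonic acid into leukotriene A4. Leukotriene A4 hydrolase (Lta4h) then makes leukotriene B4, a chemoattractant for neutrophils that acts through Ltb4r1, whereas leukotriene C4 synthase (Ltc4s) makes the cysteinyl leukotrienes, which constrict smooth muscle and raise vascular leak. In the other branch, the cyclooxygenases Ptgs1 and Ptgs2 make prostaglandin H2, the first being constitutive in many tissues and the second inducible, and Ptges turns it into prostaglandin E2. Kupffer cells, the resident macrophages of the liver, are known as a main hepatic source of prostanoids, and leukocytes as the main source of leukotrienes.

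Barcodes with at least 200 detected genes were taken as cells. There were 10386 in control, 9253 on day 1 post-injury (p.i.) and 5624 on day 7 p.i., with 8013800, 6107866 and 3058967 UMIs and medians of 595, 509 and 456.5 UMIs per cell. Levels are UMIs per 1000000 UMIs of the library or cell class (CPM). Cells were assigned to classes by their detected markers, and a class gated in this way is a range of marker content, not a proven type. The gate left 36.5%, 29.6% and 28.6% of the cells of the 3 libraries ungated, and 523, 568 and 598 cells lay near its limits. On day 7 the median cell gated as T cell, Kupffer cell or wound macrophage also carried 3 neutrophil markers, against 0 or 1 in control. Mitochondrial transcripts took 20.5%, 21.7% and 4.10% of the UMIs of the 3 libraries. Up to 2.65% of the cells of the smaller library shared their barcode with a cell of another library.

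Ptgs2 and Ptgs1, whose products catalyse the same step, went opposite ways on day 7, and Ltb4r1 rose beside Ptgs2. Their promoters are therefore shown, as the 250 bases before the transcription start (RefSeq, build GRCm38.p6). Of the 8 genes, 7 had an entry in the table used. Ptgs2 lies on the plus strand, with this window at chr1:150099781-150100030, Ptgs1 on the plus strand at chr2:36230176-36230425 and Ltb4r1 on the plus strand at chr14:55765712-55765961. Capitals mark matches to the motifs searched, on either strand.
Ptgs2: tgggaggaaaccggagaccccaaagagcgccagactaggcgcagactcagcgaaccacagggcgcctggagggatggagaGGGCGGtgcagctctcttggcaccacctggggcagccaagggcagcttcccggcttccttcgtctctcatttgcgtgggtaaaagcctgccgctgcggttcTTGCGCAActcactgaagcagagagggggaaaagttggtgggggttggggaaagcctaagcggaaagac
Ptgs1: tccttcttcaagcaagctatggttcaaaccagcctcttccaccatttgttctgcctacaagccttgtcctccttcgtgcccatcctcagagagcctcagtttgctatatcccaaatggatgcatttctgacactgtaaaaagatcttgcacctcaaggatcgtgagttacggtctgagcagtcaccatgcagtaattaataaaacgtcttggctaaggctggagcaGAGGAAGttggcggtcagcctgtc
Ltb4r1: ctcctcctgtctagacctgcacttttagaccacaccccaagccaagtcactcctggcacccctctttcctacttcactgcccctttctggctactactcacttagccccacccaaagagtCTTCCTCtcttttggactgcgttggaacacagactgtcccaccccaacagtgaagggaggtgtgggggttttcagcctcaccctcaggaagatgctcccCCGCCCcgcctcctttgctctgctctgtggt
The Ptgs2 window held a C/EBP motif (TTGCNNAA) from 69 to 62 bases before the start and a GC box (GGGCGG). The Ptgs1 window held a PU.1 motif (GAGGAAG) from 24 to 18 bases before the start, and the Ltb4r1 window held the PU.1 motif and a GC box on the opposite strand. Of 32851 promoter windows, 9.56% held the C/EBP motif, 10.6% the PU.1 motif and 32.7% the GC box. None of the 7 windows held the TATA box (TATAAA), the E box (CACGTG), the cyclic AMP response element (TGACGTCA), the AP-1 motif (TGANTCA) or the NF-kB motif, which were in 12.4%, 6.02%, 1.55%, 6.75% and 0.980% of all windows. These matches describe letters and no binding was measured. Bases outside these windows, such as those after the annotated start, were not searched for motifs, so a motif absent here can lie close by. The Ptgs2 window was richer in CG dinucleotides, with 13 against 5 in Ptgs1 and 3 in Ltb4r1.

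Over whole libraries, the genes for FLAP, 5-lipoxygenase, the leukotriene B4 receptor and inducible cyclooxygenase were lower than in control on day 1 and higher on day 7. Those for leukotriene C4 synthase and constitutive cyclooxygenase were close to control on day 1 and lower on day 7. Among genes with at least 20 UMIs in the pair of libraries, 4 of the 7 members counted were at least 2-fold lower on day 1 and 0 were at least 2-fold higher, beside 7.14% and 13.6% of all 12988 genes counted. On day 7, 5 of 8 were at least 2-fold higher and 2 at least 2-fold lower, beside 8.79% and 26.3% of 12074 genes. The median log2 ratio of all genes was 0.05 on day 1 and -0.26 on day 7, and that of the members counted was -1.20 and 1.73. A whole-library level cannot tell fewer cells of a type from less RNA per cell. Neutrophil-gated cells were 3.08% of cells in control, 0.52% on day 1 and 36.2% on day 7, and wound macrophages 5.67%, 0.17% and 17.8%. The study, by imaging, reports neutrophils gathering in liver wounds by day 1. The libraries are named here by their labels, and whether the labels match the tissue was not tested.

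**Figure D1:**
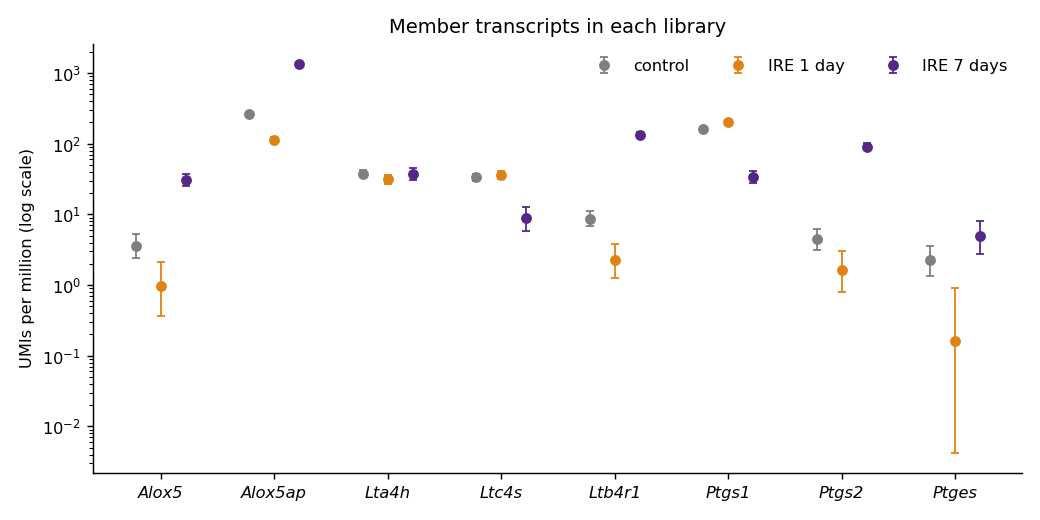
CPM (log axis) of the 8 genes in the control library (grey), at 1 day (orange) and at 7 days after IRE (purple), with bars for the 95% Poisson interval of the count. Alox5, Alox5ap, Ltb4r1 and Ptgs2 were lowest at 1 day and highest at 7 days, while Ltc4s and Ptgs1 were lowest at 7 days.

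Alox5ap was counted at 262 CPM (251 to 273) in control, 114 (106 to 123) on day 1 and 1325 (1284 to 1366) on day 7, from 2098, 697 and 4052 UMIs. It was thus 0.44 times control (0.40 to 0.48) on day 1 and 5.06 times control (4.80 to 5.34) on day 7. The ratio on day 1 was 0.52 when only cells with at most 20% mitochondrial UMIs were used, which is no longer 2-fold. A UMI of Alox5ap was found in 15.8%, 6.50% and 44.9% of cells. The gene for its partner enzyme, Alox5, was sparse, with 29, 6 and 94 UMIs. Its level was 3.62 (2.42 to 5.20), 0.98 (0.36 to 2.14) and 30.7 (24.8 to 37.6), so that the ratio to control was 0.27 (0.092 to 0.67) on day 1 and 8.49 (5.55 to 13.4) on day 7. The 3 libraries therefore kept the same order for both genes, with intervals that did not overlap.

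The enzymes downstream of leukotriene A4 did not follow that order. Lta4h was at 37.4 (33.3 to 41.9), 31.3 (27.0 to 36) and 37.6 (31.0 to 45.1) CPM in control, on day 1 and on day 7, with a ratio to control of 1.00 (0.80 to 1.25) on day 7. Ltc4s was at 33.3 (29.4 to 37.6), 36.5 (31.9 to 41.6) and 8.83 (5.82 to 12.8), from 267, 223 and 27 UMIs. Its intervals overlapped in control and on day 1, and on day 7 it was 0.26 times control (0.17 to 0.39). The receptor gene Ltb4r1 was at 8.73 (6.81 to 11.0), 2.29 (1.25 to 3.85) and 132 (119.5 to 146) CPM, from 70, 14 and 404 UMIs. Its ratio to control was 0.26 (0.14 to 0.47) on day 1 and 15.1 (11.7 to 19.8) on day 7.

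Of the cyclooxygenase genes, Ptgs1 was at 161 (153 to 170), 201 (189 to 212) and 33.7 (27.5 to 40.8) CPM, from 1292, 1225 and 103 UMIs. It was 1.24 times control (1.15 to 1.35) on day 1 and 0.21 times control (0.17 to 0.26) on day 7. Ptgs2 was at 4.49 (3.15 to 6.22), 1.64 (0.79 to 3.01) and 90.9 (80.5 to 102), from 36, 10 and 278 UMIs. Its ratio of 20.2 (14.3 to 29.5) on day 7 was the highest of the 8 genes, and on day 1 it was 0.36 (0.16 to 0.75). The 2 cyclooxygenase genes therefore moved in opposite directions on day 7. The prostaglandin E synthase gene Ptges had only 18, 1 and 15 UMIs, with a ratio of 2.18 (1.02 to 4.59) on day 7, and was too sparse to be counted on day 1.

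The members fell into different cell classes in control. Among classes of at least 50 cells, Alox5ap was highest in neutrophil-gated cells, at 772 CPM (664 to 893), and in classical monocytes, at 716 (645 to 793). These 2 classes did not differ beyond counting error. Conventional dendritic cells followed at 390 (328 to 460), wound macrophages at 313 (272 to 357) and plasmacytoid dendritic cells at 298 (170 to 484), which overlapped one another. Kupffer cells held 174 (152 to 199). The 24 patrolling monocytes, a class under 50 cells, held 668 (333 to 1195). B cells, NK cells, T cells, fibroblasts and stellate cells, and endothelial cells lay between 118 and 73.4, with overlapping intervals. Since leukocytes are the main source of FLAP, the endothelial level is given as a reference. The markers of the wound macrophage gate (Arg1, Ccl2, Ccl7, Spp1, Gpnmb, Trem2, Thbs1 and Mmp12) were not those of 1 population, since Gpnmb was found in 80.5% and Arg1 in 27.2% of its cells in control, against 13.9% and 84.8% on day 7.

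Alox5 in control had 7 of its 29 UMIs in neutrophil-gated cells, at 29.7 (11.9 to 61.2), and 5 in Kupffer cells, at 4.06 (1.32 to 9.47). Ungated cells held 9 of them. Only 16 cells were gated as basophil and mast cells, with 2 UMIs of Alox5 at 208 (25.1 to 750). Ltb4r1 was highest in neutrophils at 55.2 (29.4 to 94.3) and classical monocytes at 38.8 (23.7 to 59.9), which overlapped, followed by T cells at 15.6 (6.27 to 32.1). In wound macrophages only 1 UMI of it was found among 687471. Lta4h was spread over classes. It was highest in NK cells at 107 (67.4 to 163), neutrophils at 84.9 (51.8 to 131) and T cells at 84.6 (59.9 to 116), whose intervals overlapped, and low in Kupffer cells at 17.8 (11.2 to 27.0).

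Ptgs1 was foremost a Kupffer cell transcript in control, with 53.8% of its UMIs in Kupffer-gated cells, which held 15.4% of all UMIs. Its level there was 564 (523 to 607). Of the classes with fewer than 50 cells, 48 mesothelial cells of the liver surface, at 415 (278 to 595), and 31 erythroid cells, at 363 (157 to 715), overlapped it. The 4 cells gated as platelet and megakaryocyte, with 3282 UMIs, were too few to rank. Among classes of at least 50 cells, endothelial cells, at 155 (131 to 181), and fibroblasts and stellate cells, at 137 (107 to 173), came next and did not differ beyond counting error. T cells held 31.2 (17.0 to 52.3). Ptges was a fibroblast transcript in control, with 14 of 18 UMIs in the 478 cells of the fibroblast and stellate gate. In that gate, 11 of the 14 UMIs were in the 225 cells with a UMI of the matrix genes Dpt or Lum, at 38.9 (19.4 to 69.6), against 12.8 (2.63 to 37.4) in the others. The fibroblast and stellate gate held 15 cells on day 1 and 3 on day 7, none with a UMI of Ptges.

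**Figure D2:**
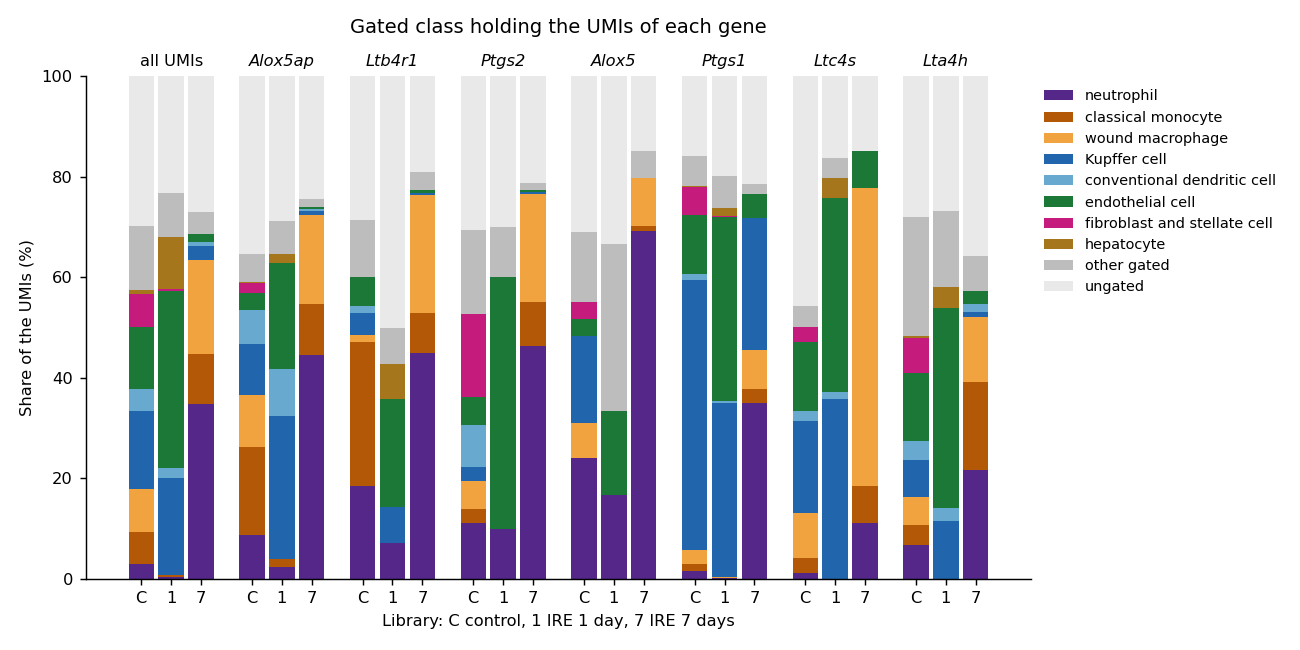
Share of all UMIs and of the UMIs of 7 genes (percent, stacked bars) held by each gated class in the control library (C) and at 1 day (1) and 7 days (7) after IRE. At 7 days neutrophil-gated cells held 34.8% of all UMIs and 44.5% of those of Alox5ap, 45.0% of those of Ltb4r1 and 46.4% of those of Ptgs2.

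Ltc4s did not have 1 dominant gated class in control. Kupffer cells at 39.8 (29.4 to 52.6), endothelial cells at 37.2 (26.2 to 51.3) and wound macrophages at 34.9 (22.4 to 51.9) did not differ beyond counting error, and 122 of its 267 UMIs were in ungated cells. Some control cells held many copies, with up to 7 UMIs of Ltc4s in 1 cell. After the values had been seen, cells with a UMI of Prg4 or Gata6, transcripts of peritoneal macrophages and of mesothelium, were set apart. These 237 control cells held 48 UMIs of Ltc4s at 141 (104 to 187), against 28.5 (24.9 to 32.6) in the others, and 38 of the 52 UMIs of the lipoxygenase gene Alox15. On day 1 the 106 cells with Prg4 or Gata6 held 7 UMIs of Ltc4s, at 30.3 (12.2 to 62.4), and 0 of Alox15. They held 1 UMI of the prostacyclin synthase gene Ptgis, against 117 in the control cells set apart. Whether the cells set apart were of the same kind in each library was not tested. On day 7 there were 12 such cells, with 0 UMIs of Ltc4s and 3 of Alox15. Without them the control level of Ltc4s remained above the 8.85 (5.84 to 12.9) measured in the other cells on day 7.

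On day 1 the members counted in Kupffer and in endothelial cells, the largest gated classes, lay within 2-fold of control. In Kupffer cells 0 of 4 members counted were at least 2-fold higher and 0 at least 2-fold lower, beside 10.8% and 4.18% of genes. In endothelial cells the count was also 0 of 4 in both directions, beside 11.4% and 3.51%. Alox5ap was at 169 (146 to 194) in Kupffer cells and 68.3 (57.7 to 80.2) in endothelial cells, with ratios to control of 0.97 (0.79 to 1.18) and 0.93 (0.70 to 1.25). The endothelial ratio was 1.43 in cells with at most 1 marker of another class. In Kupffer cells Ptgs1 was at 361 (328 to 397), 0.64 times control (0.57 to 0.72), whereas in endothelial cells it was at 209 (190 to 229), 1.35 times control (1.12 to 1.63). In the other classes, Alox5ap was 0.38 times control (0.11 to 1.07) in B cells, 0.45 (0.17 to 1.02) in T cells and 0.30 (0.0072 to 1.86) in NK cells, with intervals that included 1. In cells that passed no gate it was 0.46 times control (0.39 to 0.53), and Ltc4s was 0.50 times control (0.33 to 0.73). Ltc4s in Kupffer cells was at 68.1 (54.0 to 84.8), 1.71 times control (1.19 to 2.5), and in endothelial cells it was at 39.9 (31.9 to 49.3), 1.07 times control (0.72 to 1.62).

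These within-class values on day 1 stood beside a changed mixture of cells. There were 320 neutrophil-gated cells in control and 48 on day 1, 783 and 24 classical monocytes, and 589 and 16 wound macrophages, so that the classes richest in Alox5ap and Ltb4r1 could not be compared on day 1. Endothelial cells made up 14.2% of control cells and 38.3% on day 1. With the class mix of day 1 and the class levels of control, the ratio to control would be 0.62 for Alox5ap and 0.54 for Ltb4r1, against measured ratios of 0.44 and 0.26. For Ptgs1 it would be 1.22, against a measured 1.24. With control mix and the levels of day 1, the ratios would be 0.47, 0.31 and 1.03 for Alox5ap, Ltb4r1 and Ptgs1. For these, classes under 50 cells in either library, such as neutrophils, were pooled into 1 group, whose inner mix counts as level. Ptgs1 was also 3.23 times control (1.5 to 7.08) in T cells, at 101 (58.7 to 161) against 31.2 (17.0 to 52.3), and 2.25 times control (0.86 to 6.26) in B cells. It was likewise higher in barcodes under 200 genes, at 150 (135 to 166) against 52.5 (43.0 to 63.5), and the part of free RNA in the within-class values was not tested.

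On day 7 Alox5ap, Ltb4r1 and Ptgs2 were higher within the gated myeloid classes as well as over the whole library. In neutrophil-gated cells, 4 of 6 members counted were at least 2-fold higher and 2 at least 2-fold lower than in control neutrophils, beside 21.6% and 7.05% of genes. Of those 4, Alox5ap and Alox5 fell under 2-fold per 1000000 non-mitochondrial UMIs, at 1.72 and 1.62, and the interval of the Alox5 ratio included 1. In classical monocytes the counts were 3 and 1 of 5, beside 13.8% and 8.06%. In wound macrophages they were 3 and 1 of 6, beside 14.8% and 13.1%. Ltb4r1 and Ptgs2 were at least 2-fold higher in all 3 of these classes, and Ptgs1 was at least 2-fold lower in them.

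**Figure D3:**
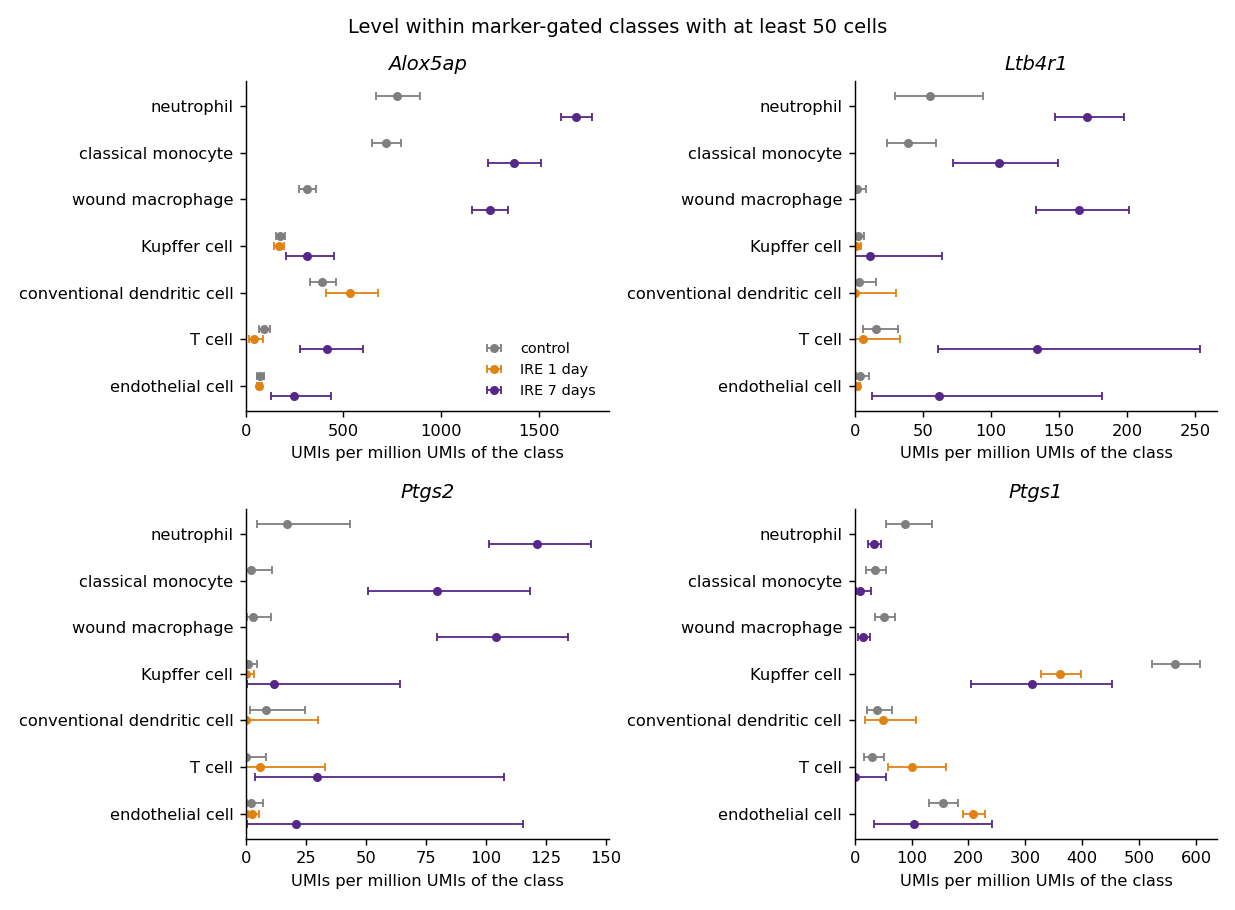
CPM of the class for Alox5ap, Ltb4r1, Ptgs2 and Ptgs1 in 7 gated classes, in control (grey), at 1 day (orange) and at 7 days after IRE (purple), with 95% Poisson intervals; a class with fewer than 50 cells in a library has no point. Alox5ap, Ltb4r1 and Ptgs2 were higher at 7 days than in control in neutrophils, classical monocytes and wound macrophages, and the Ptgs1 points were highest in Kupffer cells in each library, overlapping endothelial cells at 7 days.

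Alox5ap in neutrophil-gated cells was at 1692 (1615 to 1772) on day 7, 2.19 times control (1.88 to 2.57), from 1803 UMIs in 2034 cells. In classical monocytes it was at 1372 (1243 to 1511), 1.92 times control (1.66 to 2.21), and in wound macrophages at 1251 (1161 to 1346), 4.00 times control (3.43 to 4.68). The ratio in neutrophils was 1.72, under 2-fold, and that in monocytes 1.54 when mitochondrial UMIs were left out of the totals, a scaling chosen after the data were seen. In the wound macrophages with at most 1 marker of another class, 606 on day 7 and 430 in control, the ratio was 3.81. Neutrophils exceeded monocytes beyond counting error, and monocytes and wound macrophages overlapped. With each cell thinned to 300 UMIs, a UMI of Alox5ap was found in 38.2% (36% to 40.5%) of neutrophils on day 7 and 19.0% (14.9% to 23.8%) in control, leaving out 143 and 5 shallower cells. Unthinned, the shares were 51.2% and 36.6%, at median depths of 444 and 631 UMIs.

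Alox5ap was also higher in endothelial cells on day 7, at 249 (128 to 434) against 73.4 (57.5 to 92.3) in control, although the thinned shares overlapped. In endothelial cells on day 7, of which 15 of 78 were too shallow, the thinned share with Alox5ap was 4.76% (0.993% to 13.3%), unthinned 14.1%, against 1.31% (0.793% to 2.04%) in control, at median depths of 508.5 and 541 UMIs. The level in T cells was 416 (276 to 601). Both levels lay below the levels of neutrophils, monocytes and wound macrophages by more than counting error. In Kupffer cells Alox5ap was at 311 (205 to 453), 1.78 times control (1.15 to 2.67), which overlapped the endothelial level. The endothelial level rests on 12 UMIs, and the median endothelial cell on day 7 also carried 2 neutrophil markers, against 0 in control. The part of doublets or free RNA in the endothelial, T cell and Kupffer levels was not tested.

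Alox5 in neutrophils was at 61.0 (47.1 to 77.8) on day 7, from 65 of the 94 UMIs of the library. Its ratio to control neutrophils, 2.05 (0.94 to 5.31), included 1, and was 1.62 without mitochondrial UMIs. Wound macrophages held 15.6 (7.15 to 29.7) and classical monocytes 3.31 (0.084 to 18.5), both below neutrophils, while T cells held 5 UMIs at 74.3 (24.1 to 173) and overlapped them. Lta4h in neutrophils went the other way, from 84.9 (51.8 to 131) in control to 23.5 (15.2 to 34.6), a ratio of 0.28 (0.15 to 0.52), which was 0.090 in cells with at most 1 marker of another class. In neutrophils without the granule genes Camp, Ltf or Ngp it was at 39.8 (16.0 to 82.1) and 26.1 (16.7 to 38.9), which overlapped. Those with a UMI of these genes held 217 (116 to 371) and 6.84 (0.173 to 38.1). In classical monocytes Lta4h was at 66.3 (40.5 to 102), 2.85 times control (1.33 to 6.39). The whole-library level of Lta4h, which was even with control, thus held both directions.

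Ltb4r1 was at 171 (147 to 198) in neutrophils on day 7, 3.10 times control (1.77 to 5.93), and at 106 (72.5 to 150) in classical monocytes, 2.73 times control (1.52 to 5.04). In wound macrophages it was at 165 (134 to 202), from 95 UMIs against 1 in control, a ratio of 113 with the wide interval of 19.9 to 4528. Neutrophils and wound macrophages did not differ beyond counting error, and the median wound macrophage also carried 3 neutrophil markers, whose part in this level was not tested. T cells held 9 UMIs at 134 (61.1 to 254), which overlapped both. Endothelial cells held 3 UMIs at 62.1 (12.8 to 182) and Kupffer cells 1 UMI at 11.5 (0.292 to 64.2). After thinning, 5.18% (4.23% to 6.28%) of neutrophils, 5.75% (4.35% to 7.44%) of wound macrophages and 5.36% (1.99% to 11.3%) of 112 T cells had a UMI of Ltb4r1, and 0 of 102 Kupffer cells did, which allows a share of up to 2.94%. Unthinned shares in neutrophils, wound macrophages and T cells were 8.31%, 8.79% and 6.11%, at median depths of 444, 503 and 450 UMIs. Effector T cells are known to carry the receptor, and whether the T cell counts are their own or free RNA was not tested.

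Ptgs2 was at 121 (101 to 144) in neutrophils on day 7, against 17.0 (4.63 to 43.5) in control, 7.13 times (2.72 to 26.6), which was 3.69 times in cells with at most 1 marker of another class. In wound macrophages it was at 104 (79.5 to 134), from 60 UMIs against 2, with a ratio of 35.8 (9.5 to 303) that was 22.9 in cells with at most 1 marker of another class, and in classical monocytes at 79.5 (51 to 118), from 24 UMIs against 1. These 3 classes overlapped one another. T cells held 2 UMIs, endothelial cells 1 and Kupffer cells 1, the last at 11.5 (0.292 to 64.2). The thinned share of cells with a UMI was 3.23% (2.48% to 4.12%) in neutrophils and 3.73% (2.61% to 5.15%) in wound macrophages, against 0.893% (0.0226% to 4.87%) in T cells. The unthinned shares were 5.70%, 5.29% and 0.763%. Of the 15 UMIs of Ptges on day 7, 7 were in neutrophils and 2 in wound macrophages, whereas in control 0 of 18 were in these classes.

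Ptgs1 on day 7 was highest in the 117 Kupffer cells left, at 311 (205 to 453), 0.55 times control (0.36 to 0.81), which overlapped endothelial cells at 104 (33.6 to 242). Kupffer-gated cells had made up 12.0% of control cells and were 2.08% on day 7. In neutrophils Ptgs1 was at 33.8 (23.7 to 46.8) against 89.1 (55.2 to 136) in control, and in wound macrophages at 13.9 (6.00 to 27.4) against 50.9 (35.5 to 70.8). After thinning, 14.6% (12.7% to 16.7%) of Kupffer cells had a UMI of Ptgs1 in control, 10.9% (9.42% to 12.5%) on day 1 and 10.8% (5.51% to 18.5%) on day 7, at 37.2%, 20.8% and 19.7% unthinned and median depths of 802, 565 and 546 UMIs. In T cells the thinned shares were 0.909%, 3.70% and 0 of 112 cells, which allows up to 2.68%. Ltc4s on day 7 had 16 of its 27 UMIs in wound macrophages, at 27.8 (15.9 to 45.1), 0.80 times control (0.40 to 1.56), and 0 in Kupffer cells, at least 1.15-fold lower than control.

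Levels also varied within the gated myeloid classes. Among neutrophils on day 7, the 1214 cells with a UMI of the chemokine genes Cxcl3 or Ccl4 held Ptgs2 at 136 (110 to 167) and the 820 without at 95.5 (67.6 to 131), and Alox5ap at 1639 (1543 to 1739) and 1782 (1653 to 1918). Ltb4r1 was at 169 and 173 in these subsets, so that of these 3 genes only Ptgs2 was higher in the chemokine-bearing cells, with overlapping intervals. The 520 neutrophils with a UMI of the interferon-induced Ifit1, Ifit3 or Isg15 held Alox5ap at 1581 (1439 to 1733) and the others at 1734 (1642 to 1829). In the 251 neutrophils with the granule genes Camp, Ltf or Ngp, Alox5ap was at 2276 (2038 to 2534), above the 1599 (1519 to 1683) of those without. In control neutrophils the order was the other way, with 517 (351 to 734) in 71 cells with these granule genes and 859 (728 to 1008) in 249 cells without, though the intervals overlapped. The granule gene subsets were not alike in the 2 libraries. Camp was found in 12.2% of control neutrophils and 1.13% on day 7, Ltf in 9.06% and 0.541%, and Ngp in 18.1% and 11.8%. Lta4h in control neutrophils had 13 of its 20 UMIs in the 71 cells with granule genes, at 217 (116 to 371) against 39.8 (16.0 to 82.1) in the others, and on day 7 it was at 6.84 (0.173 to 38.1) and 26.1 (16.7 to 38.9). Among wound macrophages on day 7, the 746 cells without Gpnmb or Trem2 held Ltb4r1 at 205 (163 to 255) and Ptgs2 at 128 (95.1 to 168), against 73.8 (39.3 to 126) and 51.1 (23.4 to 97.0) in the 255 cells with either. In control, 550 of 589 wound macrophages carried Gpnmb or Trem2, and they held 1 UMI of Ltb4r1 and 2 of Ptgs2.

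The share of each library ratio that follows the class mix alone differed between genes on day 7. With the class mix of day 7 and control levels, the ratio would be 1.90 for Alox5ap, 2.99 for Ltb4r1 and 1.83 for Ptgs2, against measured ratios of 5.06, 15.1 and 20.2. With control mix and the levels of day 7, it would be 3.18, 9.30 and 10.9. For Alox5 both were similar, at 3.34 and 3.47. For Ptgs1 the mix alone gave 0.55 and the levels alone 0.47, and for Ltc4s they gave 0.86 and 0.28. These values divide the measured change by gated class and say nothing of its origin. The mix alone used 19 classes, whereas the levels alone used 8 groups, with all classes under 50 cells in either library pooled into 1. A changed mix inside that pooled group therefore counts as level. The ungated cells, with 29.8% of control UMIs, entered this split as 1 class. In them Ltb4r1 was at 8.38 in control and 93.5 on day 7, and Ptgs2 at 4.61 and 71.7. Whether the make-up of the ungated cells changed was not tested.

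**Figure D4:**
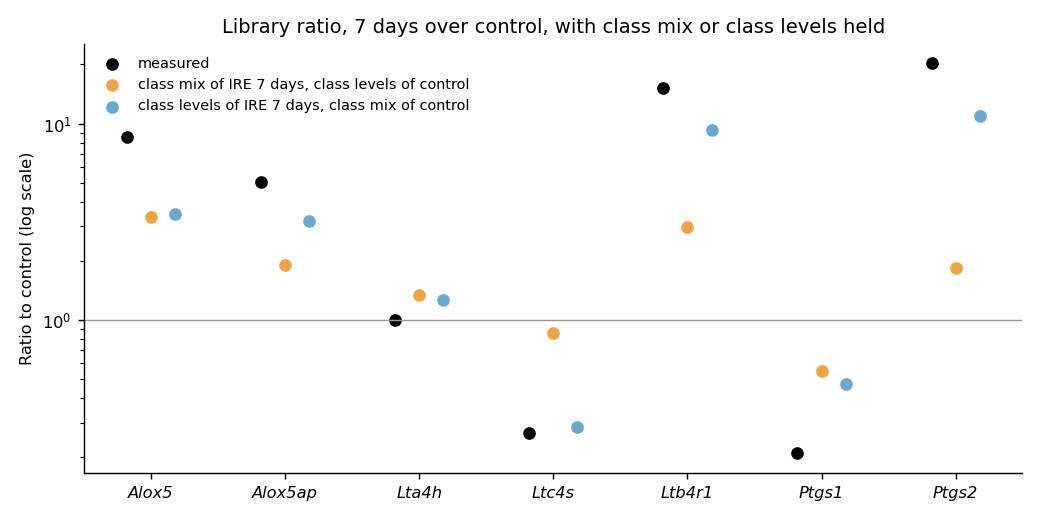
Ratio of each gene to control at 7 days after IRE (log axis): as measured (black), with the class mix of 7 days and the class levels of control (orange), and with the class levels of 7 days and the class mix of control (blue). For Ltb4r1 and Ptgs2 the levels within classes gave 9.30 and 10.9, and the mix alone 2.99 and 1.83. The ungated cells were taken as 1 class. For the blue points, classes under 50 cells in either library were pooled into 1 group.

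Of 44 other eicosanoid genes listed, 40 were in the files. On day 1, 34 had enough UMIs, of which 9 were at least 2-fold higher and 10 at least 2-fold lower than in control, beside 13.6% and 7.14% of all genes. On day 7 the counts were 8 and 11 of 32, beside 8.79% and 26.3%. Of 9 genes that conjugate or break down leukotrienes, 1 was at least 2-fold higher and 5 at least 2-fold lower on day 1, and 4 were higher and 2 lower on day 7. Cyp4f18, whose product inactivates leukotriene B4 in mouse neutrophils, was at 47.3 CPM in control, 12.6 on day 1 and 206 on day 7, where 304 of 631 UMIs were in neutrophils. Dpep2, a dipeptidase that turns leukotriene D4 into leukotriene E4, was at 19.3, 2.46 and 97.4. Ptgr1, whose product also inactivates leukotriene B4, was 3.40 times control (2.83 to 4.09) on day 7.

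Among the other receptors, Fpr2, which binds lipoxin A4 and formyl peptides, was at 48.4, 32.6 and 194 CPM, and 358 of its 592 UMIs on day 7 were in neutrophils. Cysltr1, the receptor for leukotriene D4, was 2.17 times control (1.79 to 2.62) on day 7. Of the genes that carry or degrade prostanoids, Hpgd, whose product inactivates prostaglandin E2, was at 213, 551 and 59.2. In Kupffer cells it was at 847 (796 to 900) in control and 1224 (1161 to 1289) on day 1, and in endothelial cells at 195 (169 to 225) and 483 (454 to 513). Hpgd was also higher on day 1 in T cells, at 231 (164 to 316) against 28.9 (15.4 to 49.5) in control. In conventional dendritic cells it was at 221 (146 to 321) against 50.2 (29.7 to 79.3), and in ungated cells at 420 (387 to 455) against 116 (103 to 131). The part of free RNA in these values was not tested. The prostaglandin transporter gene Slco2a1 was at 12.6, 40.1 and 3.60. Prostacyclin synthase, Ptgis, which had 54.1% of its control UMIs in fibroblasts and stellate cells, was at 42.7, 17.7 and 3.27, and the haematopoietic prostaglandin D synthase Hpgds at 66.8, 26.5 and 22.2. Mgll, whose product can release arachidonic acid from a monoacylglycerol, was at 57.2, 171 and 23.5, with more than 50% of its UMIs in endothelial cells in control and on day 1. Cyp4f14 was 12.1 times control (8.15 to 18.8) on day 1, when 48.8% of its UMIs were in cells with at least 10% hepatocyte marker UMIs, and these markers took 3.24% of all UMIs against 0.191% in control.

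**Figure D5:**
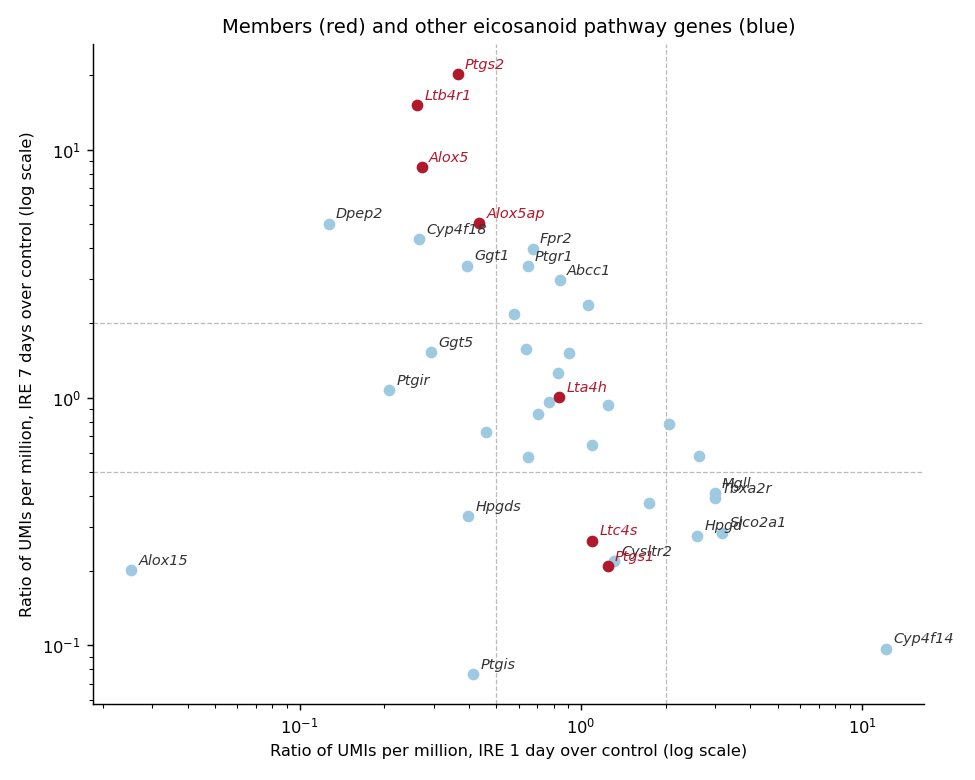
Ratio of CPM to control at 1 day (horizontal log axis) and at 7 days after IRE (vertical log axis) for 7 members (red) and 31 other eicosanoid genes (blue) with enough UMIs in both comparisons; dashed lines mark 2-fold, and both axes share the control library. Alox5, Alox5ap, Ltb4r1 and Ptgs2 lie at the upper left with Dpep2, Cyp4f18 and Ggt1, and Ptgs1 and Ltc4s lie below the lower line.

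The remaining genes past 2-fold are given by their ratios to control. On day 1, Alox12 (2.62), Ptgds (5.69), Ptgfr (3.72), Tbxa2r (2.98) and Abcc4 (2.05) were higher. Alox15 (0.025), Ggt1 (0.39), Ggt5 (0.29), Dpep1 (0.041), Ptger4 (0.46) and Ptgir (0.21) were lower at that time. On day 7, Ggt1 (3.41), Ptger1 (2.37) and Abcc1 (2.98) were higher, and Pla2g6 (0.37), Alox15 (0.20), Cyp4f14 (0.097), Cysltr2 (0.22) and Tbxa2r (0.39) lower. The intervals of Ggt1 on day 1 (0.13 to 1.02) and of Pla2g6 on day 7 (0.071 to 1.25) included 1. Dpep1 had 32 UMIs in control, 31 of them in fibroblasts and stellate cells, and 0 on day 7, at least 4.07-fold lower.

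The genes most like each member over 33 pairs of a gated class and a library were found by Pearson's r of log2(CPM + 10) among 10073 genes. These pairs share libraries and depth, so that r is given as a description. Alox5ap was closest to Plek (r = 0.88), Samsn1 (0.88) and Ncf1 (0.88), Ltb4r1 to Arg2 (0.89), Agpat9 (0.89) and Trem1 (0.88), and Ptgs2 to Slc16a3 (0.86), Ccr1 (0.83) and Agpat9 (0.82). Agpat9 stood in the lists of both Ltb4r1 and Ptgs2. Alox5 was closest to Prok2 (0.81), Nfe2 (0.77) and Cd101 (0.75), and Ptgs1 to Vcam1 (0.84), Cd5l (0.82) and Serpinb6a (0.81), of which Cd5l is a marker of the Kupffer gate. Lta4h, closest to Atad2b (0.74), Kmt2b (0.72) and Cyld (0.71), and Ltc4s, closest to Agps (0.72), Enox2 (0.71) and Glul (0.71), had no gene above 0.74.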

How the data were processed

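The authors aligned the reads with STAR (version 2.5.2a in the submitters' processing notes) and deposited raw UMI counts per gene and barcode, made per the file headers with the Drop-seq tools from sense-strand reads. The notes name a human build, hg19, although the gene symbols are those of mouse, so that no coordinates of the files are given. Barcodes under 200 genes, with 20.1% to 33.2% of the UMIs of a library, were left out. Counts were scaled to UMIs per 1000000 UMIs (CPM). A cell took the class whose detected markers had the highest summed weight (-log10 of the marker's share of barcodes), with at least 2 markers, a weight of at least 1.5 and a lead of 0.5, and hepatocytes were gated first by 10% marker UMIs. These limits were set with the data seen. Leading genes of each compared class held more of its own markers than of another class. Since the cells were gated by these markers, this does not check the gate. Doublets were not called, and leaving out the 5% of barcodes with most UMIs was an alternative. Sums have exact Poisson, shares exact binomial (Clopper-Pearson) and ratios conditional binomial intervals at 95%, with a floor of 3 counts for a 0. Steps were tested on simulated data. The members and lists were chosen with earlier results of these data known. The text names the 8 members, the pathway genes past 2-fold, and the 3 genes closest to each member with at least 100 UMIs. Analyses used Python 3 with numpy, scipy and pandas.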

Additional observations from a re-analysis of the deposited data

Results flagged for a closer look

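For 6 genes the ratio to control lay on opposite sides of 1 at the 2 times, with counting intervals that left out 1. The share of all genes that meet this rule is not given, so the count is not read as particular to the members. Both ratios share the control library, and the difference was not tested across animals. They were 0.27 and 8.49 for Alox5, 0.44 and 5.06 for Alox5ap, 0.26 and 15.1 for Ltb4r1, 0.36 and 20.2 for Ptgs2, and 0.073 and 2.18 for Ptges, which rests on 1 UMI on day 1. Ptgs1 went the other way, at 1.24 and 0.21.

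Barcodes with fewer than 200 genes, which were not counted as cells, also held members above their level in the same kind of control barcode. On day 7 these were Alox5ap at 1665 CPM against 194 in control, Ltb4r1 at 147 against 9.41, Ptgs2 at 176 against 9.41 and Alox5 at 54.6 against 5.94. On day 1 they were Ptgs1 at 150 against 52.5 and Ltc4s at 24.4 against 14.4. The values of Alox5ap, Alox5 and Ptgs2 on day 7 were higher than in cells with at least 200 genes, which held 1325, 30.7 and 90.9.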

How the results depend on the processing

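No paired analysis was possible because each condition had 1 library. Of 95 recalculated library ratios, 88 lay within the counting interval of the reported value, and none of the others changed direction. With at most 20% mitochondrial UMIs per cell the ratio was 0.52 for Alox5ap and 1.09 for Ptgs1 on day 1 and 0.17 for Ptgs1 on day 7. Without the 5% of barcodes with most UMIs, Ptgs1 was at 1.42 on day 1. For Alox5ap on day 7 the ratio was 4.72 with at least 300 genes, 5.79 over every barcode and 4.20 per 1000000 non-mitochondrial UMIs. Size factors moved no ratio out of its interval. Within classes, removing cells with more than 1 marker of another class gave 0.090 for Lta4h in neutrophils on day 7 and 1.43 for Alox5ap in endothelial cells on day 1. Per 1000000 non-mitochondrial UMIs, a scaling added after the data were seen, Alox5ap on day 7 was at 1.72 in neutrophils and 1.54 in classical monocytes. The cause of these shifts was not tested. The counts of genes past 2-fold stayed within 1.5 times under each setting tried. Thinned shares of cells depend on the depth chosen by construction. Ratios that rest on 1 to 4 UMIs in control, as for Ltb4r1 and Ptgs2 in wound macrophages, have wide intervals at this depth, and Alox5, Ptges and every class under 50 cells were near its limit.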
